A study of Mus musculus with 6 samples.

Results

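The 10 genes described here encode peroxiredoxins (Prdx1 to Prdx6), thioredoxin (Txn1), its cytosolic reductase (Txnrd1) and the intracellular superoxide dismutases (Sod1 and Sod2). They were chosen by symbol, with no rule on their values, and all 10 were found among the 13823 genes of the deposited table. The samples were RNA-sequencing libraries of 6 Balb/c mice, 1 per mouse. In the ITSN group, 3 mice received isotoosendanin, a plant limonoid, by mouth at 1 mg/kg per day. In the vehicle group, 3 mice received dimethyl sulfoxide (DMSO). The labels call the tissue of all 6 mice breast, state male animals, and give no age, duration of treatment or tumour model, although the series title concerns triple-negative breast cancer and the TGF-β receptor TGFβR1. Levels are in FPKM, which counts fragments for each kilobase of a transcript and divides by the total of the library. FPKM keeps no depth, so the depth behind each value is unknown.

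Superoxide dismutases turn superoxide into hydrogen peroxide, with copper and zinc in the cytosolic enzyme Sod1 and manganese in the mitochondrial enzyme Sod2. Peroxiredoxins reduce hydrogen peroxide at a reactive cysteine. Prdx1 and Prdx2 act mainly in the cytosol, Prdx3 in mitochondria, Prdx4 in the endoplasmic reticulum, and Prdx5 in mitochondria, peroxisomes and cytosol. In the cytosol the oxidised cysteines are reduced by thioredoxin, the product of Txn1, which the selenoenzyme Txnrd1 recharges with NADPH. Prdx3 is served by the mitochondrial pair Txn2 and Txnrd2 and Prdx4 mainly by protein disulphide isomerases, whereas Prdx6 has a single reactive cysteine and uses glutathione. These enzymes are present in most cell types, so a level in bulk tissue is a sum over its cells, and fewer cells of a type cannot be told apart from less RNA per cell.

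The libraries differed in more than treatment. Mitochondrially encoded transcripts took 13.5% to 15.6% of the FPKM sum in ITSN, and 32.3%, 22.4% and 17.5% in vehicle 1, 2 and 3. Noncoding genes of the ribosomal RNA region took 4.57%, 4.01% and 5.32% in ITSN 1, 2 and 3, and 2.88%, 2.43% and 2.41% in vehicle 1, 2 and 3, so that share separated the groups. Vehicle 1 lay far from the rest on principal component 1, at -43.2 against -4.6 to 20.1 in the other libraries. The summed level of 9 listed neutrophil markers (of 12) was 78.5 to 127 FPKM in ITSN, against 240, 132 and 81.7 FPKM in vehicle 1, 2 and 3. The summed level of 12 macrophage markers was 567 to 606 FPKM in ITSN, against 222, 527 and 655 FPKM in vehicle 1, 2 and 3. The summed level of 9 listed fibroblast markers (of 10) was 129 to 207 FPKM in ITSN, against 56.0, 150 and 196 FPKM in vehicle 1, 2 and 3. The epithelial keratin Krt18 was at 269 to 301 FPKM in ITSN and 191 to 280 FPKM in vehicle, while Csn3 was the only listed gene of 6 mammary secretory markers, at 1.02 to 4.77 FPKM in ITSN and 1.49 to 3.96 FPKM in vehicle. Xist, expressed from the inactive X chromosome, was at 25.1 to 28.5 FPKM in ITSN and 20.1 to 29.3 FPKM in vehicle, and no Y-linked gene of 4 sought was listed, which goes against the label of male mice. The part that cell composition played in the results below was not tested.

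All 10 genes were well expressed. Averaged over the 6 libraries, Txn1 stood highest at 134 ± 22.2 FPKM, followed by Sod1 at 106 ± 14.8 and Prdx1 at 62.2 ± 11.5 FPKM (SD, n = 6). Prdx2 was at 32.5 ± 2.0, Txnrd1 at 26.0 ± 3.4, Prdx5 at 22.5 ± 4.2 and Prdx6 at 20.2 ± 1.6 FPKM. The lowest were Prdx4 at 15.6 ± 2.2, Prdx3 at 13.4 ± 2.4 and Sod2 at 11.8 ± 0.9 FPKM, and even Sod2 ranked 3461 among the 13823 genes, where Txn1 ranked 115. Among neighbours in this order, the ranges over libraries separated only Sod1 from Prdx1 and Prdx1 from Prdx2. Of the other neighbours in this order, Prdx2 stood above Txnrd1, Prdx6 above Prdx4 and Prdx4 above Prdx3 in each of the 6 libraries, although their ranges overlapped. Txn1 exceeded Sod1 and Prdx3 exceeded Sod2 in 5 of 6 libraries, while Txnrd1 exceeded Prdx5, and Prdx5 exceeded Prdx6, in 4 of 6.

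The genes lie on 8 chromosomes, and their promoters were searched for the core of the antioxidant response element, the site bound by Nrf2, because Prdx1 and Txnrd1 are known Nrf2 targets. The core searched was TGACNNNGC, on both strands, in RefSeq windows (GRCm38.p6) from 250 bases before to 50 bases after a transcription start. There were 11 windows for 9 of the 10 genes, all but Prdx6. The core was found in 3 windows, 1 each of Prdx1, Txnrd1 and Sod1, which is 27.3% of them, against 12.4% of all 32851 windows. No other motif was searched, and a match of letters is a description, not evidence of binding. The matched stretches are shown 5′ to 3′ on the gene's strand with the core, here in its reverse complement GCNNNGTCA, in capitals. The Prdx1 stretch lies at chr4:116685457-116685483 on the plus strand, with the core beginning at position -133 from the start. The Txnrd1 stretch lies at chr10:82859105-82859131 on the plus strand, at -92 from 1 of 3 starts, and the Sod1 stretch at chr16:90220697-90220723 on the plus strand, at -56.
Prdx1: agggaaagcGCTGAGTCAtcccccgta
Txnrd1: tggatttttGCTTTGTCAttctgacac
Sod1: ccaaggtggGCGTGGTCAgactcaggc

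The comparison of ITSN with vehicle asked whether these transcripts differ after treatment, and no question about them is stated in the labels. None of the 10 genes passed at a limma adjusted p under 0.05, in a fit over 12257 tested genes of which 0.0571% passed. With library weights estimated by limma 5 passed (Prdx3, Prdx4, Prdx5, Txnrd1 and Sod1), where 56.4% of all tested genes did and ITSN 1 and vehicle 2 carried weights of 8.17 and 6.73, against at most 0.70 for the others. At an unadjusted limma p under 0.05 there were 2 of the 10, Prdx5 and Prdx4, against 20.9% of all tested genes. The estimates were above 0 for 6 genes and below 0 for 4, where 63.9% of all tested genes were above 0. The median log2 difference was 0.09 for the 10 genes and 0.09 for all tested genes. Trimmed-mean scaling between libraries moved these medians to -0.03 and -0.02. The ITSN and vehicle libraries did not overlap for Prdx4 and Prdx5, both above in ITSN, a pattern shown by 21.7% of all tested genes, and no gene of the 10 lay wholly below, as 7.37% of tested genes did.

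**Figure D1:**
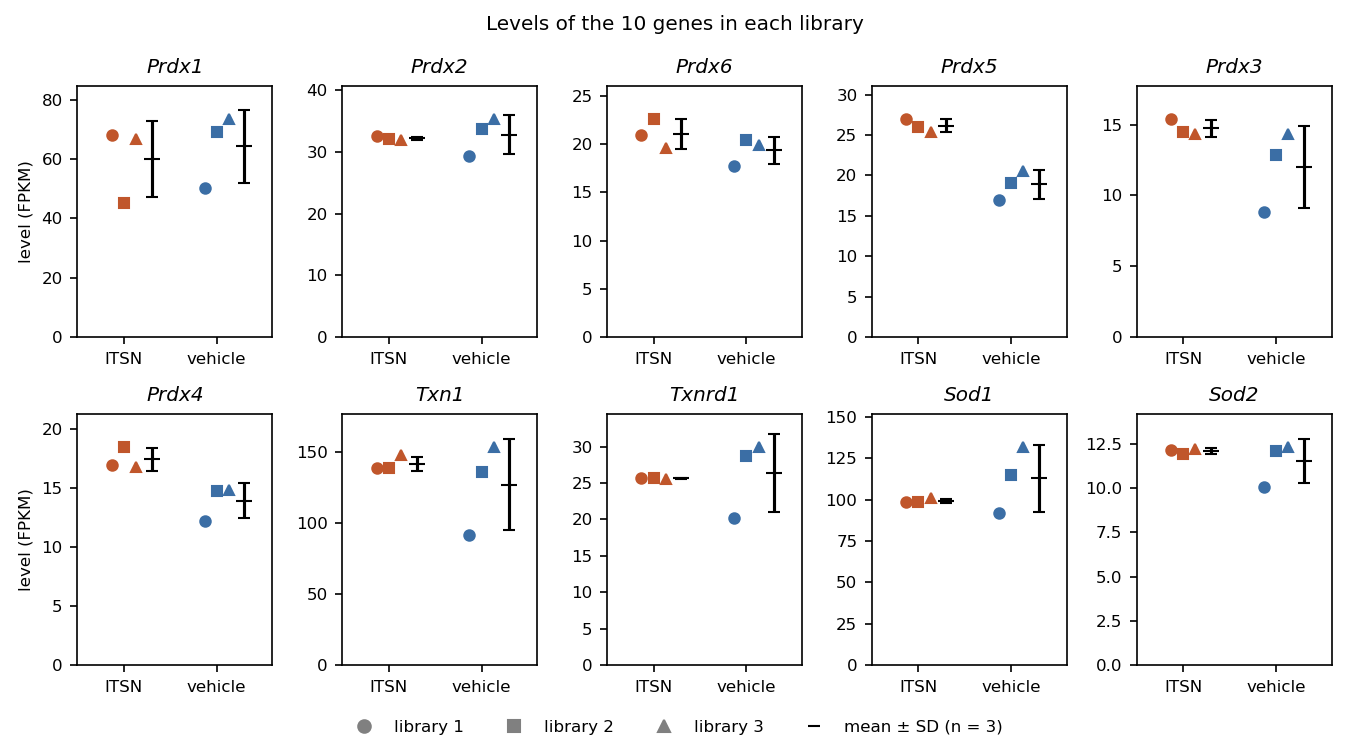
Level in FPKM (vertical axis, from 0) of each of the 10 genes in the 3 ITSN and 3 vehicle libraries, with mean and SD beside them. Prdx5 and Prdx4 separate the groups, while for Sod1, Txnrd1 and Prdx2 the ITSN libraries lie above vehicle 1 and below vehicle 2 and 3.

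Prdx5 had the largest estimate of the 10 genes on the deposited scale, but not with the GC trend removed, where Prdx3 at 0.41, Prdx4 at 0.31, Txn1 at 0.27, Sod1 at -0.25 and Sod2 at 0.24 were larger in size. It stood at 27.0, 26.0 and 25.4 FPKM in ITSN 1, 2 and 3, against 17.0, 19.1 and 20.5 FPKM in vehicle 1, 2 and 3. All ITSN values lay above all vehicle values. The means were 26.2 ± 0.797 FPKM in ITSN and 18.9 ± 1.78 FPKM in vehicle (SD, n = 3 each), a ratio of 1.39. The log2 difference of FPKM + 1 was 0.45 (SE 0.096, 95% interval 0.22 to 0.68, limma adjusted p = 0.085). Without vehicle 1 it was 0.38 and passed (limma adjusted p = 0.044), in a fit where 5.55% of tested genes passed. On the nuclear scale described below for Prdx3, also without vehicle 1, it was 0.40 (limma adjusted p = 0.033), where 8.97% passed. Prdx5 (ENSMUSG00000024953.16), on chromosome 19 at 6906697 to 6910106 on the minus strand (mm10), has 58.3% GC in its longest coding transcript, more than 91.5% of genes. After removal of the trend of log2 values on GC content its change was 0.20 (limma adjusted p = 0.39). Its exons also overlap those of Trmt112, which runs the other way. The labels' protocols include dUTP marking, but no source used here says whether counting used strand. Whether reads of the pair were told apart is therefore unknown. Trmt112, which encodes a methyltransferase activator, was at 9.89, 9.20 and 10.8 FPKM in ITSN 1, 2 and 3, against 5.32, 11.2 and 8.48 FPKM in vehicle 1, 2 and 3, so it did not separate the groups.

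Prdx4, the secretory-pathway peroxiredoxin, was the other gene whose groups did not overlap. Its levels were 16.9, 18.5 and 16.8 FPKM in ITSN 1, 2 and 3, against 12.2, 14.7 and 14.8 FPKM in vehicle 1, 2 and 3. ITSN 2 was the highest library and vehicle 1 the lowest. The log2 difference was 0.31 (SE 0.11, limma adjusted p = 0.17), a ratio of means of 1.25. It was 0.31 after removal of the GC trend, 0.26 after rescaling to nuclear genes, 0.22 without vehicle 1 and 0.185 after trimmed-mean scaling, with limma adjusted p of 0.26, 0.12, 0.11 and 0.22. Prdx4 (ENSMUSG00000025289.15) lies on the X chromosome at 155323918 to 155340754 on the minus strand and shares no exon with another annotated gene.

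Prdx3, the mitochondrial peroxiredoxin, was at 15.4, 14.5 and 14.3 FPKM in ITSN 1, 2 and 3, against 8.81, 12.9 and 14.3 FPKM in vehicle 1, 2 and 3. The low value was vehicle 1, and vehicle 3 lay just above ITSN 3. Its change on the log2 scale was 0.30 (SE 0.17, limma adjusted p = 0.37), 0.18 after trimmed-mean scaling (limma adjusted p = 0.42) and 0.11 without vehicle 1 (limma adjusted p = 0.41). When each library was divided by its sum over nuclear genes, leaving out 13 mitochondrially encoded genes and 2 noncoding genes of the ribosomal RNA region, Prdx3 stood at 15.2, 14.3 and 13.9 FPKM in ITSN, against 9.93, 12.8 and 13.7 FPKM in vehicle. On that scale the groups no longer overlapped, and the limma adjusted p was 0.29.

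For Prdx1, Prdx2 and Prdx6 the groups overlapped and no test passed. Prdx1 was at 68.1, 45.3 and 66.8 FPKM in ITSN 1, 2 and 3, against 50.2, 69.1 and 73.5 FPKM in vehicle 1, 2 and 3, so the low libraries were ITSN 2 and vehicle 1. ITSN 2 lay 0.56 log2 units under the mean of ITSN 1 and 3, a gap reached by 1.73% of tested genes. ITSN 2 was also the library highest in skeletal muscle markers, whose sum over 13 listed genes (of 14) was 60.7, 109 and 22.4 FPKM in ITSN 1, 2 and 3, against 9.81, 26.4 and 28.1 FPKM in vehicle 1, 2 and 3, and the part of muscle in the Prdx1 values was not tested. The log2 difference was -0.10 (SE 0.21, limma adjusted p = 0.82), and it turned to 0.087 without ITSN 2 and to 0.066 after removal of the GC trend. Prdx2, the abundant peroxiredoxin of red blood cells, was at 32.5, 32.2 and 32.0 FPKM in ITSN, against 29.3, 33.8 and 35.4 FPKM in vehicle, with a log2 difference of -0.021 (SE 0.096, limma adjusted p = 0.92). Of 12 red blood cell markers 4 were listed, with a summed level of 26.7 to 42.2 FPKM in ITSN and 26.0 to 41.2 FPKM in vehicle, and Alas2 was not among the listed genes. Prdx6 was at 20.9, 22.6 and 19.6 FPKM in ITSN, against 17.7, 20.4 and 19.9 FPKM in vehicle, with a log2 difference of 0.12 (SE 0.098, limma adjusted p = 0.55) that turned to -0.010 after trimmed-mean scaling.

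Within the family, Prdx1 supplied the largest share of the summed FPKM of the 6 peroxiredoxins, at 34.8% ± 5.44 in ITSN and 39.7% ± 2.24 in vehicle (SD, n = 3 each). Such shares do not depend on scaling between libraries. Prdx5 supplied 14.9%, 16.4% and 14.5% in ITSN 1, 2 and 3, against 12.6%, 11.2% and 11.5% in vehicle 1, 2 and 3, without overlap. Prdx4 supplied 10.2% ± 1.22 in ITSN and 8.6% ± 0.35 in vehicle, also without overlap, and Prdx3 8.6% ± 0.46 in ITSN and 7.4% ± 0.78 in vehicle. Each of these 3 shares was higher in ITSN in every pair of libraries. For levels on the deposited scale, ITSN lay wholly above vehicle for 21.7% of all tested genes. That percentage is not for shares, and none was computed for shares within other gene families. Shares of the same sum are not independent of each other. The Prdx1 share was 28.5% in ITSN 2, against 37.6% and 38.2% in ITSN 1 and 3. The GC trend was not removed from the shares. The sum itself was 181, 159 and 175 FPKM in ITSN 1, 2 and 3, against 135, 170 and 179 FPKM in vehicle 1, 2 and 3.

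Thioredoxin and its reductase were distributed differently over the libraries. The product of Txn1 reduces Prdx1, Prdx2 and ribonucleotide reductase. Txn1 was at 139, 139 and 148 FPKM in ITSN 1, 2 and 3. In vehicle 1, 2 and 3 Txn1 was at 91.2, 136 and 154 FPKM. The ITSN values lay within the vehicle range, and the log2 difference of 0.19 (SE 0.19, limma adjusted p = 0.63) was -0.031 without vehicle 1. Txnrd1 was at 25.7, 25.7 and 25.6 FPKM in ITSN, an SD of 0.0782, against 20.2, 28.8 and 30.02 FPKM in vehicle. The estimate was -0.015 (SE 0.15, limma adjusted p = 0.97), 0.007 after removal of the GC trend, and -0.19 without vehicle 1 (limma adjusted p = 0.11). The log2 ratio of Txnrd1 to Txn1 was -2.39, -2.39 and -2.48 in ITSN, against -2.12, -2.20 and -2.32 in vehicle, a difference of -0.20 without overlap (exact two-sided permutation p = 0.1, or 0.133 after Benjamini-Hochberg adjustment over 4 ratios). With 3 against 3 libraries 0.1 is the smallest p that this test can give. The share of all gene pairs whose ratio separates the groups was not computed, so the 4 ratios have no background.

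Sod1, the second most abundant of the 10 genes, was at 98.5, 98.9 and 101 FPKM in ITSN 1, 2 and 3, against 91.8, 115 and 132 FPKM in vehicle 1, 2 and 3. Vehicle 1 lay below the ITSN libraries and vehicle 2 and 3 lay above them. The log2 difference was -0.17 (SE 0.14, limma adjusted p = 0.56), -0.31 without vehicle 1 (limma adjusted p = 0.073) and -0.22 on the nuclear scale (limma adjusted p = 0.22). It was -0.25 with the GC trend removed and -0.30 after trimmed-mean scaling. On the nuclear scale Sod1 stood at 96.8, 98.1 and 97.7 FPKM in ITSN, against 103, 114 and 126 FPKM in vehicle, so the groups no longer overlapped. Groups with ITSN wholly below were then found for Sod1 and Prdx2, against 11.1% of tested genes, and groups with ITSN wholly above for Prdx3, Prdx4 and Prdx5, against 19.4%. On the deposited scale an order with vehicle 1 below and vehicle 2 and 3 above the ITSN libraries, held for Sod1, Txnrd1 and Prdx2, against 9.06% of tested genes. Sod1 (ENSMUSG00000022982.9) lies on chromosome 16 at 90220742 to 90226322 on the plus strand. These coordinates differ from those of GENCODE M21, so its GC content there may not be that of the transcripts counted.

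Sod2 was at 12.2, 11.9 and 12.2 FPKM in ITSN 1, 2 and 3, against 10.1, 12.1 and 12.4 FPKM in vehicle 1, 2 and 3, with vehicle 1 the low library. Its log2 difference was 0.071 (SE 0.10, 95% interval -0.17 to 0.31, limma adjusted p = 0.74), which turned to -0.051 after trimmed-mean scaling, to -0.018 with quantile normalization and to -0.014 without vehicle 1, and was 0.24 with the GC trend removed. The log2 ratio of Sod2 to Sod1 within a library was -2.92, -2.95 and -2.94 in ITSN, against -3.07, -3.14 and -3.32 in vehicle. The ITSN ratios were all higher, by 0.24 on average (exact two-sided permutation p = 0.1, adjusted 0.133). With the GC trend removed the difference was 0.49, but the coordinates of both genes differ from GENCODE M21, which gave their GC content. How often ratios of other gene pairs separate the groups was not computed. The ratio of Prdx3 to Prdx1 was also higher in each ITSN library, at -2.07, -1.58 and -2.15, against -2.38, -2.34 and -2.28 in vehicle (difference 0.40, exact permutation p = 0.1, adjusted 0.133), and the highest value was that of ITSN 2, the library low in Prdx1. The ratio of Prdx2 to Prdx1 overlapped between groups (difference 0.080, exact permutation p = 1.0).

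**Figure D2:**
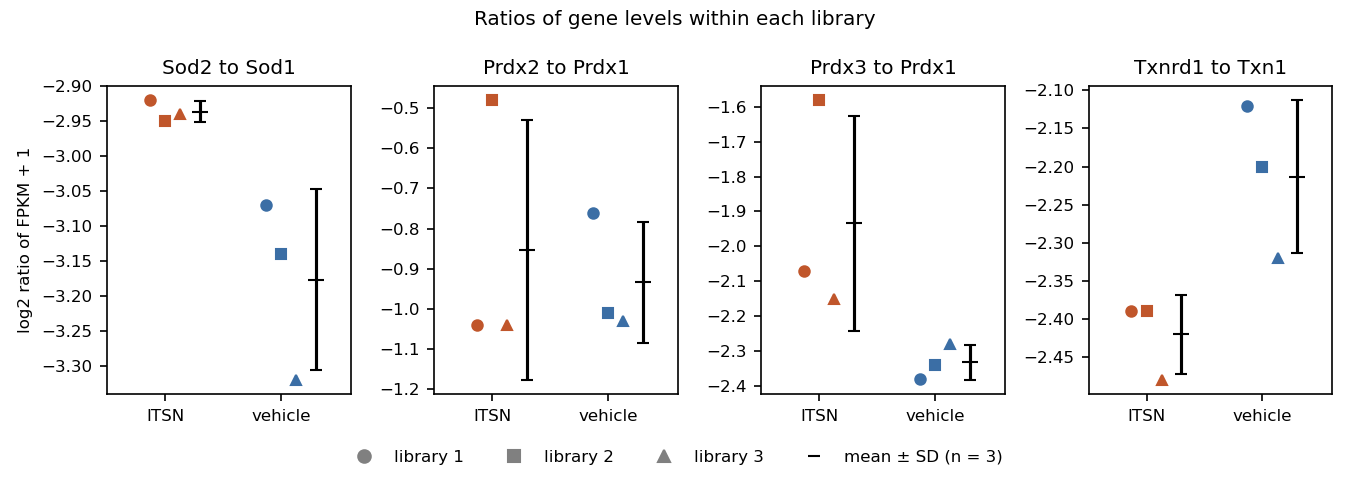
Log2 ratio of FPKM + 1 between 2 genes of the same library (vertical axis, scales differ) for the 3 ITSN and 3 vehicle libraries, with mean and SD. The ITSN libraries lie above the vehicle libraries for Sod2 to Sod1 and Prdx3 to Prdx1, below them for Txnrd1 to Txn1, and overlap them for Prdx2 to Prdx1. How often ratios of other gene pairs separate the groups was not computed.

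The spread within groups was unequal. The coefficient of variation was lower in ITSN than in vehicle for 9 of the 10 genes, all but Prdx1, with medians of 3.3% in ITSN and 14.4% in vehicle. Among the 4086 tested genes with a mean of at least 10 FPKM it was lower in ITSN for 74.9%, with medians of 6.2% in ITSN and 13.3% in vehicle. Vehicle 1 was the lowest of the 6 libraries for 9 of the 10 genes, again all but Prdx1, and for 52.2% of all tested genes. Leaving out vehicle 1 moved the estimates of Txn1, Prdx3, Txnrd1, Prdx1 and Sod1 by 0.14 to 0.22 log2 units, and those of the other 5 genes by 0.058 to 0.085.

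**Figure D3:**
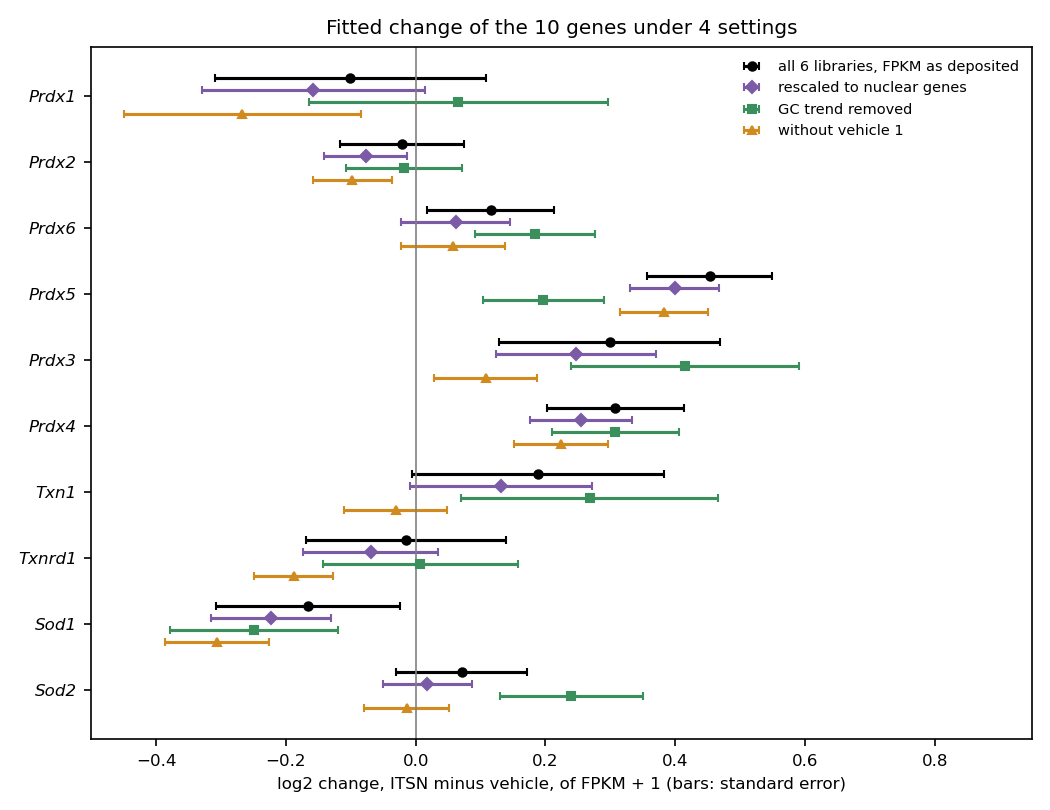
Fitted log2 difference of FPKM + 1, ITSN minus vehicle (horizontal axis), of the 10 genes with all 6 libraries, after rescaling to nuclear genes, after removal of the GC trend and without vehicle 1. Bars are standard errors. Prdx5 is at 0.20 with the GC trend removed, Sod1 is below 0 in all 4 settings, and Txn1 and Sod2 turn sign without vehicle 1.

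Near-identical copies limit some values. A stretch of at least 200 bases with at least 95% identity to an annotated processed pseudogene was found for Prdx1 (2 pseudogenes), Prdx2, Txn1 and Sod1 (1 each), none of which is listed in the table, so reads could have been split between gene and copy. Exons of Prdx2 overlap those of Junb and Rnaseh2a on the opposite strand. Junb, an AP-1 subunit, was at 60.4, 53.2 and 68.5 FPKM in ITSN 1, 2 and 3, against 40.7, 34.8 and 31.0 FPKM in vehicle 1, 2 and 3. No such overlap or copy was found for Prdx3, Prdx4, Prdx6, Txnrd1 and Sod2.

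The genes whose pattern over the 6 libraries was most like Prdx5 were Mtmr3, Impact and Zzef1, with Pearson r of log2 values of 0.9994, 0.9984 and 0.9968. Those most like Prdx4 were Gstt3, Smg1 and Rnf145, with r of 0.9984, 0.9962 and 0.9960. They were picked from 12257 genes over 6 libraries that share the group difference and vehicle 1, so the r values are a description only. Mtmr3 was at 10.7, 10.3 and 10.3 FPKM in ITSN, against 7.58, 8.23 and 8.63 FPKM in vehicle.

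The partners of the peroxiredoxin and thioredoxin systems were examined as lists, and no gene of these lists passed in limma over all genes. Of 25 thioredoxin and peroxiredoxin partners, all tested, 17 had estimates above 0, against 63.9% of all tested genes. Their median log2 difference was 0.09, equal to that of all genes. The groups separated upward for 5 and downward for 2 of the 25, against 21.7% and 7.37% of all tested genes. Sesn2, a stress-induced sestrin, was at 2.03, 2.25 and 1.95 FPKM in ITSN, against 0.822, 1.16 and 1.26 FPKM in vehicle (log2 difference 0.57, limma adjusted p = 0.080). It passed without vehicle 1 at 0.48 (limma adjusted p = 0.047), but was at 0.30 with the GC trend removed (limma adjusted p = 0.33) and at 0.22 with both steps (limma adjusted p = 0.29). Nucleoredoxin (Nxn) had a log2 difference of 0.41 (limma adjusted p = 0.096), the mitochondrial iron-sulphur glutaredoxin Glrx5 of 0.36 (limma adjusted p = 0.12) and Glrx3 of -0.25 (limma adjusted p = 0.21). With the GC trend removed Nxn was at 0.22 and Glrx3 at -0.13. Srxn1, which repairs overoxidised peroxiredoxins, was at 5.43, 5.56 and 8.28 FPKM in ITSN, against 3.60, 6.52 and 5.23 FPKM in vehicle. Txnip, the thioredoxin inhibitor, was at 27.1 ± 4.76 FPKM in ITSN and 27.0 ± 4.46 FPKM in vehicle (SD, n = 3 each). The mitochondrial thioredoxin Txn2 was at 4.70 ± 0.316 FPKM in ITSN and 4.43 ± 0.450 FPKM in vehicle.

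Of the 13 genes listed as superoxide dismutase partners or for peroxide removal, 11 were tested and none passed. Estimates were above 0 for 8 of the 11, against 63.9% of all tested genes. Ccs, the copper chaperone that loads Sod1, was at 7.34, 7.36 and 6.91 FPKM in ITSN, against 6.19, 5.05 and 5.71 FPKM in vehicle (log2 difference 0.31, limma adjusted p = 0.16, and 0.11 on the log2 scale with the GC trend removed). Ccs thus stood above vehicle in every ITSN library, while Sod1 did not. The glutathione peroxidase gene Gpx1 was at 19.6, 17.2 and 19.6 FPKM in ITSN, against 48.0, 73.3 and 86.2 FPKM in vehicle (log2 difference -1.79, limma adjusted p = 0.063), and passed in 9 of 20 other settings. Its change exceeded that of any of the 10 genes in size, and the peroxiredoxins' sum did not separate the groups. Gpx8, of the endoplasmic reticulum, had a log2 difference of -0.36 (limma adjusted p = 0.12) and the lipid peroxide reductase gene Gpx4 of 0.29 (limma adjusted p = 0.20), which turned to -0.031 after removal of the GC trend. Gpx8 passed without vehicle 1 (limma adjusted p = 0.036), but was at -0.22 with the GC trend removed (limma adjusted p = 0.38) and did not pass with both steps (limma adjusted p = 0.097). Catalase (Cat) was at 20.1 ± 0.890 FPKM in ITSN and 19.2 ± 2.32 FPKM in vehicle (SD, n = 3 each).

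NADPH is the electron source of thioredoxin reductase. Of 16 genes listed for its supply, directly or indirectly, 14 were tested. Of these 12 had estimates above 0, against 63.9% of all tested genes, and none passed. Their median log2 difference was 0.18, and -0.01 without vehicle 1, against 0.09 and 0.03 for all tested genes. Pgls, of the pentose phosphate pathway, was at 4.94, 4.67 and 5.70 FPKM in ITSN, against 1.82, 2.80 and 3.35 FPKM in vehicle (log2 difference 0.76, limma adjusted p = 0.094). It passed without vehicle 1 at 0.58 (limma adjusted p = 0.048), but was at 0.26 with the GC trend removed (limma adjusted p = 0.46) and at 0.098 with both steps (limma adjusted p = 0.53). Taldo1, Nadk and Idh1 had log2 differences of 0.35, 0.42 and -0.31, with limma adjusted p of 0.25 to 0.35. Without vehicle 1 Taldo1 was at 0.19 and Nadk at 0.15, and with the GC trend removed Idh1 was at -0.16.

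Among 12 thioredoxin clients 7 had estimates above 0, against 63.9% of all tested genes, and none passed. Of the methionine sulphoxide reductases, Msrb3 had a log2 difference of -0.41 (limma adjusted p = 0.20) and Msrb1 of 0.44 (limma adjusted p = 0.23). Without vehicle 1 Msrb3 was at -0.58 and passed (limma adjusted p = 0.036), and Msrb1 was at 0.23. With the GC trend also removed Msrb3 did not pass (limma adjusted p = 0.082). The hypoxia factor gene Hif1a and the redox and repair factor gene Apex1 had log2 differences of -0.23 and 0.26 (limma adjusted p = 0.22 and 0.29). Hif1a was at -0.047 with the GC trend removed, and Apex1 at 0.15 without vehicle 1. Of 10 tested genes listed as sources of superoxide or hydrogen peroxide 8 had estimates above 0, against 63.9% of all tested genes, and none passed. Without vehicle 1 the median of these sources turned to -0.06 from 0.15, that of the clients to -0.07 from 0.09 and that of the peroxide removal list to -0.03 from 0.13. The NADPH oxidase subunits Cyba and Rac2 had log2 differences of 0.43 each (limma adjusted p = 0.22 for both), which were 0.25 and 0.26 without vehicle 1, and Cyba was at 0.145 with the GC trend removed. Ncf4 had a log2 difference of 0.32 that turned to -0.058 without vehicle 1, and the oxidase of protein folding Ero1l one of 0.17 that turned to -0.032 without vehicle 3 and was 0.38 without vehicle 1, with limma adjusted p of 0.61 and 0.69. Vehicle 1, the library lowest in macrophage markers, was the lowest library for Cyba, Rac2 and Ncf4 and the highest for Ero1l, and the part of macrophages in these values was not tested.

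Of 15 Nrf2 regulators and targets 12 had estimates above 0, against 63.9% of all tested genes, and none passed. Their median log2 difference was 0.12, against 0.09 for all tested genes. Ferritin light chain (Ftl1) was at 134, 129 and 148 FPKM in ITSN, against 75.6, 91.1 and 94.6 FPKM in vehicle (log2 difference 0.65, limma adjusted p = 0.076). It passed without vehicle 1 at 0.56 (limma adjusted p = 0.035), but was at 0.41 with the GC trend removed (limma adjusted p = 0.23) and at 0.32 with both steps (limma adjusted p = 0.082). Mafg and Mafk, small Maf partners of Nrf2, had log2 differences of 0.40 and 0.34 (limma adjusted p = 0.085 and 0.12), and the transporter Abcc1 of 0.22 (limma adjusted p = 0.23). Mafg passed without vehicle 1 at 0.35 (limma adjusted p = 0.045), but with the GC trend removed Mafg was at 0.26 (limma adjusted p = 0.26) and Mafk at 0.155 (limma adjusted p = 0.43), and with both steps Mafg was at 0.23 (limma adjusted p = 0.14). Nfe2l2, which encodes Nrf2, was at 22.0, 22.5 and 23.5 FPKM in ITSN, against 24.9, 25.0 and 25.5 FPKM in vehicle (log2 difference -0.14, limma adjusted p = 0.34). Prdx1 and Txnrd1, whose promoter stretches are printed above, had estimates of -0.10 and -0.015, which turned to 0.066 and 0.007 with the GC trend removed. Sod1, the other gene with a printed stretch, was at -0.17 and, with the GC trend removed, at -0.25.

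**Figure D4:**
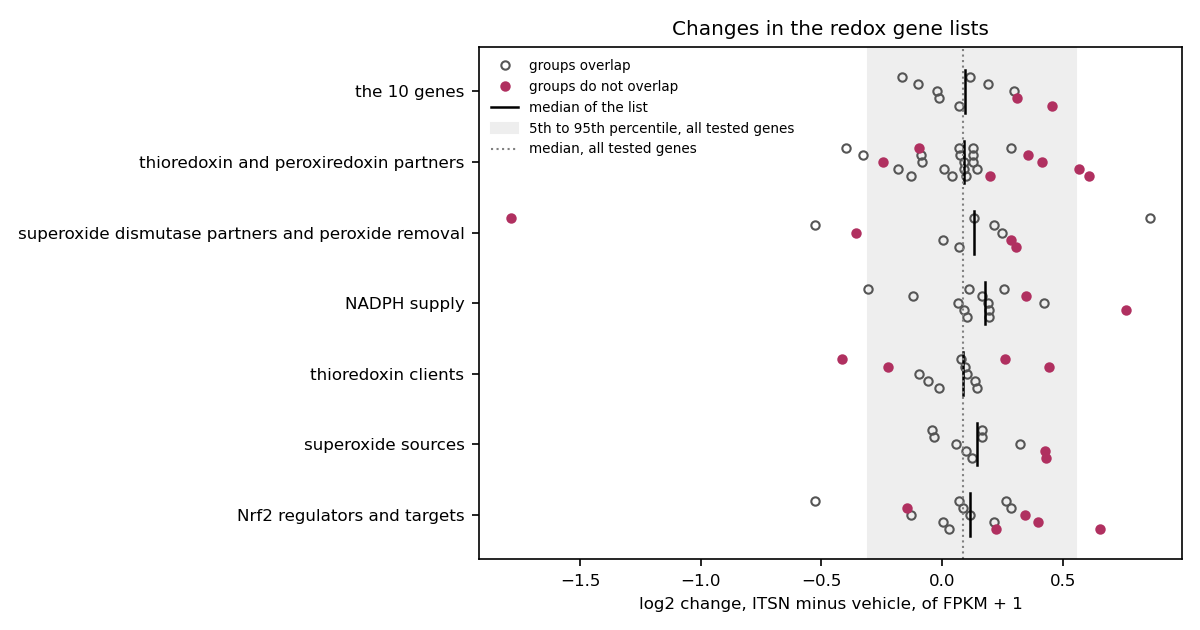
Log2 difference of FPKM + 1, ITSN minus vehicle (horizontal axis), of each tested gene of the 10 genes and of the 6 lists, with the median of each list and the range from the 5th to the 95th percentile of all tested genes (-0.31 to 0.55). Filled points have groups that do not overlap. The list medians lie from 0.09 to 0.18, and Gpx1 is the gene far to the left.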

How the data were processed

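The authors deposited 1 table, whose columns hold FPKM per the file headers, for 13823 genes plus 1 blank line. The higher group mean of each gene was at least 0.5 FPKM. Per the submitters' processing notes, mm10 was the build; no source used here names the aligner, the quantifier or the use of strand, although dUTP marking is in the labels' protocols. Groups came from the treatment label, and columns were assigned by the samples' descriptions; for the third ITSN library the description's number differs from the title's. In 300 low genes per library, periodicity was 0.126 to 0.166, against 0.121 to 0.153 in jittered values, so whole reads were not recovered, depth is unknown and no count test was run.

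The 12257 genes reaching 1 FPKM in 3 or more libraries, all 10 members among them, were analysed as log2(FPKM + 1), which understates differences of low genes. The comparison was a two-sided limma 3.58.1 test (R 4.3.3; lmFit, eBayes with trend). P-values were adjusted by Benjamini-Hochberg over those genes at a threshold of 0.05. The fit was tested on simulated data with independent noise, equal for each gene in all 6 libraries. Those data had no outlying library and no GC trend, so that test does not cover these features. Ratios within libraries were compared by exact permutation (scipy 1.17.1). The GC trend was a natural spline with 5 degrees of freedom on the GC content of GENCODE M21 transcripts (99.7% of genes matched). The longest coding transcript of a gene was used, or its longest transcript where none was coding. Of the members, Sod1 and Sod2 had coordinates that differ from GENCODE M21, so their GC-removed values are less certain. Copies were sought with BLAST 2.17.0. There were 20 alternative settings.

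Named genes were the 10 members, up to 4 genes of each functional list with the smallest unadjusted p, Xist, the most abundant cell markers, and the 3 genes closest in pattern to each of the 2 members with the smallest p. Genes outside that rule were Trmt112, Junb, Rnaseh2a, Srxn1, Txnip, Txn2, Cat and Nfe2l2, chosen after their values were seen. The members and lists were chosen with earlier results of these data known.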

Additional observations from a re-analysis of the deposited data

How the results depend on the processing

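Against 7 genes that passed in the main comparison, 19 passed with a filter of 5 FPKM, 92 after trimmed-mean scaling, 93 after quantile normalization, 157 after rescaling to nuclear genes, 6909 with library weights, 15 without vehicle 1 and with the GC trend removed, and 1 to 675 with 1 library left out (675 without vehicle 1). Of 2 settings chosen after seeing the data, leaving out vehicle 1 on the nuclear scale gave 1091, and nuclear scaling with the GC trend removed gave 10. Of the 10 genes, 5 passed with library weights, which were 8.17 for ITSN 1 and 6.73 for vehicle 2 and 0.108 to 0.70 for the others. With 1 library left out 0 to 1 passed, Prdx5 without vehicle 1, and the same gene, 1 of 10, passed without vehicle 1 on the nuclear scale. With the replicate number as a block, 2 genes passed and 0 of the 10. Same-numbered libraries correlated at 0, -0.14 and 0.24 in their deviations from group means, so the numbers were not taken to pair the mice, and only ITSN 3 correlated best with its own number.

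Prdx3, Prdx4, Prdx5 and Sod1 kept their direction in all 20 other settings, with Prdx5 at 0.14 to 0.51 and Sod1 at -0.38 to -0.045. All settings reuse the same 6 libraries, and the share of all tested genes that kept their direction was not computed. With 1 library left out, Prdx1 ran from -0.267 to 0.087, Prdx2 from -0.098 to 0.033, Txn1 from -0.031 to 0.343, Txnrd1 from -0.188 to 0.087, Sod2 from -0.014 to 0.120, Ncf4 from -0.058 to 0.574 and Ero1l from -0.032 to 0.380. With the GC trend removed, Prdx1 was at 0.066, Txnrd1 at 0.007, Gpx4 at -0.031 and the difference in the ratio of Prdx2 to Prdx1 at -0.084, while that of Sod2 to Sod1 was 0.489. On the nuclear scale with the GC trend removed, Prdx1 was at 0.011 and Gpx4 at -0.089. Trimmed-mean scaling, which put the median of all tested genes at -0.02 against 0.09, gave -0.010 for Prdx6 and -0.051 for Sod2, and quantile normalization -0.018 for Sod2. Without vehicle 1 on the nuclear scale Txn1 was at -0.017, Sod2 at -0.001 and Ncf4 at -0.045. Without vehicle 1 and with the GC trend removed Gpx4 was at -0.074, Cyba at -0.023 and Ncf4 at -0.210. With 1 library left out the ratio of Prdx2 to Prdx1 differed by -0.107 to 0.175, Sod2 to Sod1 by 0.166 to 0.292, Prdx3 to Prdx1 by 0.224 to 0.506 and Txnrd1 to Txn1 by -0.256 to -0.157. The causes were not tested. Unknown depth and 3 libraries a group limit the precision.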
